A study of Mus musculus with 9 samples.

Results

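Ion channel genes were examined in cultured B16 mouse melanoma cells that carried either a control hairpin or 1 of 2 hairpins named shAD4-1 and shAD4-2. The channel genes were chosen by symbol from the protein-coding rows of the count table, and cover voltage-gated potassium, calcium and sodium channels, HCN channels, the CLC family, TRP and TRPML channels, Piezo channels, nicotinic and P2X receptors, anoctamins, ASICs, LRRC8 subunits, ORAI channels, IP3 receptors and ryanodine receptors. The rule found 162 of the 21676 genes of the table, among 15980 protein-coding ones. Of these, 160 are channel subunits or their accessory proteins, and Trpc4ap and Trpc5os were taken in by their symbols only. Another 4 rows with matching symbols were left out, being non-coding or excluded by the rule by name. Each group had 3 replicate libraries of total RNA, and the series is about the adhesion receptor ADGRL4 in tumour dormancy. The design calls the hairpin lines knockdown derivatives of the B16 control cells, with no mention of whether a line was a pool or 1 clone, and no other treatment or time point enters the labels. Adgrl4 itself was not analysed here, so the strength of the knockdown was not checked in these libraries.

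Ion channels are membrane proteins with a pore that lets chosen ions pass down their gradient, and they open on voltage, ligands, stretch, swelling, calcium or a drained calcium store. Many work as assemblies, in which pore subunits carry the current and accessory subunits set gating and delivery to the membrane. In melanoma and melanocytes, organellar channels such as those of the TRPML and CLC families serve lysosomes and pigment organelles, while store-operated ORAI channels and the IP3 receptors of the endoplasmic reticulum shape cytosolic calcium.

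Library totals were 31.3 to 36.9 M counted reads, and 13807 genes passed the filter on low counts and were tested together. The first control library stood apart from the other controls, with a chi-square per degree of freedom of 11.8 and 17.1 against them, where pairs within all groups gave 2.93 to 17.1 and pairs between groups 18.3 to 176. Of 13 melanocyte and melanoma markers, 11 reached 1 CPM (reads scaled to library size, here scaled by TMM normalisation) in at least 1 library, and their summed level was 11441 to 13148 CPM in control, 10191 to 10408 with shAD4-1 and 11063 to 12089 with shAD4-2. The marker Kit stayed under 1 CPM, and so did Ednrb. The markers found in the table for endothelial cells, leukocytes and keratinocytes summed to at most 0.283 CPM in any library. Of 5 fibroblast markers, 3 reached 1 CPM, summing to 5.14 to 7.21 CPM in control, 10.4 to 12.2 with shAD4-1 and 12.4 to 14 with shAD4-2. Of 6 neuronal and glial markers, 3 did, Tubb3 and Gfap among them, summing to 186 to 204, 100 to 113 and 97.5 to 103 CPM, while Syt1 and Rbfox3 of the same list stayed under 1 CPM. The part of these shifts in the results on channel genes was not tested. In bulk RNA, fewer cells that express a gene and less of its RNA per cell cannot be told apart.

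Many channel genes had few reads. Of the 162 members, 86 passed the filter, and the other 76 had at most 17 reads in any library and at most 67 over all 9. Compared per length, 44 members had a mean FPKM (fragments per kilobase of gene, scaled to library size) of at least 1 and 14 of at least 10. The highest FPKM of the set belonged to Trpc4ap, at 42, which is no channel but an adaptor protein. Ano10, an anoctamin, followed at 28.7 FPKM and P2rx4, an ATP-gated cation channel, at 26.9. Clcn7, the chloride-proton exchanger of lysosomes, had 20.7 FPKM, and the stretch-gated channel Piezo1 had 19.7. The store-operated channel Orai3 stood at 19.6 FPKM, the channel-kinase Trpm7 at 17.5 and the IP3 receptor Itpr1 at 16.8. After these came Trpv2 at 14.2, the endolysosomal channel Mcoln3 at 13.9, the lipid scramblase Ano6 at 12.3 and the endosomal exchanger Clcn3 at 11.4 FPKM. No Kv, Cav, Nav or HCN pore gene was among these. The highest of those were Hcn2 at 4.5, the sodium channel Scn8a at 4.43 and the potassium channel Kcnh2 at 3.96 FPKM, each a mean over all libraries.

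**Figure D1:**
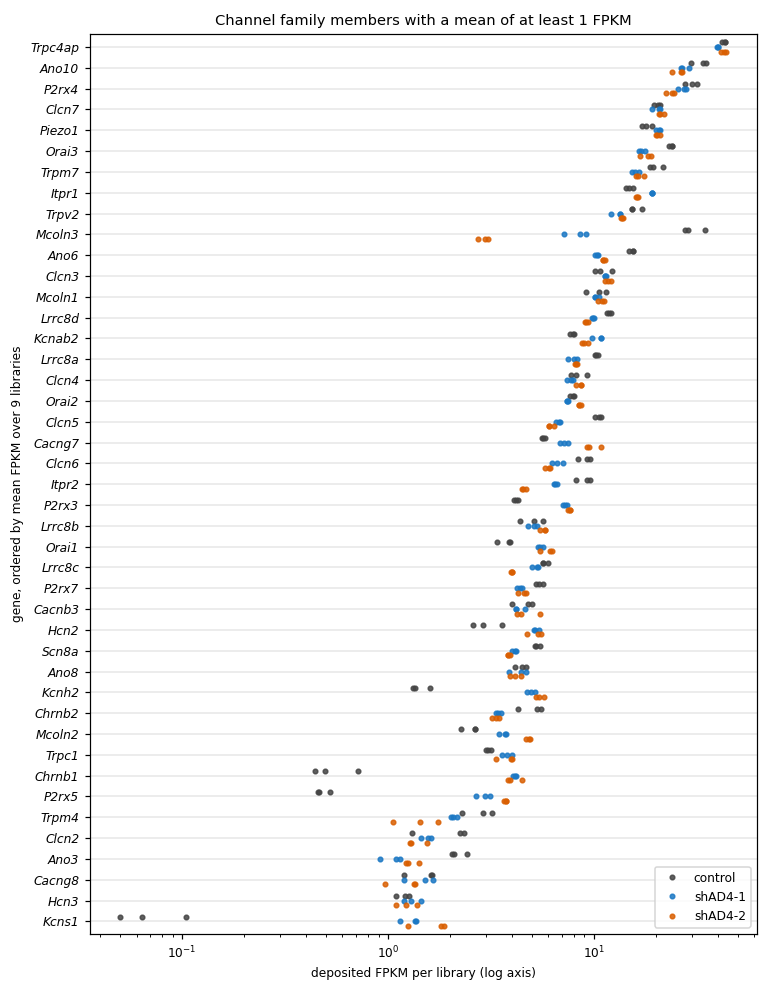
Deposited FPKM per library (horizontal log axis) of 43 members with a mean of at least 1 FPKM, ordered by that mean, 3 points per group. Mcoln3 and Kcns1 show wide gaps between control and hairpin libraries, while Trpc4ap, at the top, lies between 40.1 and 42.9 FPKM in all group means.

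Against control, 53 of the 86 tested members changed with shAD4-1 at an adjusted p under 0.05, 30 higher and 23 lower. That is 61.6% of them, and of all tested genes 65% changed, 32.7% higher and 32.3% lower, so the share of channel genes that changed was near the background. With shAD4-2, 62 members changed, 33 higher and 29 lower. That is 72.1% against 69% of all tested genes, of which 34.2% were higher and 34.8% lower. The median log2 fold change of the tested members was 0.06 with shAD4-1 and 0.11 with shAD4-2, where that of all tested genes was -0.01 in both. All adjusted p-values are Benjamini-Hochberg values over the 13807 genes, from the quasi-likelihood test of edgeR. They measure the spread between these libraries, which are replicates of 1 line per hairpin, and both comparisons use the same 3 control libraries. Without the first control library the counts were 33 higher and 24 lower for shAD4-1, and 37 higher and 27 lower for shAD4-2.

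Rises and falls of at least 2-fold were counted apart. With shAD4-1, 18 members rose at least 2-fold, which is 20.9% of those tested against 5.99% of all genes, and 4 fell at least 2-fold, 4.65% against 6.2%. With shAD4-2, 19 rose at least 2-fold, 22.1% against 6.39%, and 4 fell at least 2-fold, 4.65% against 8.34%. Most of these rises were of genes at low levels. Among the 44 members with a mean of at least 1 FPKM, 5 rose at least 2-fold with each hairpin, 11.4% of them, where all genes of that level gave 3.35% for shAD4-1 and 4.03% for shAD4-2. Among the 42 tested members under 1 FPKM, 13 rose at least 2-fold with shAD4-1 and 14 with shAD4-2, 31% and 33.3%, where all genes of that level gave 15.8% and 15.1%. A gene that passes the filter only through the group where it is high has to differ, and this holds for Kcna5, Kcnj4 and Trpm5, which had under 10 reads in every control library and at least 10 in every hairpin library. It also holds for Cacna1g with shAD4-1, which had 1, 2 and 7 reads in control, 27, 17 and 25 with shAD4-1 and 6, 5 and 10 with shAD4-2. Kcns1, P2rx1 and Kcnk5 also passed the filter only with the help of hairpin libraries, as too few of their control libraries reached its level. This list of genes may not be complete. In all, 9 tested members had under 10 reads in every control library. These shares are descriptions and carry no test of the set.

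**Figure D2:**
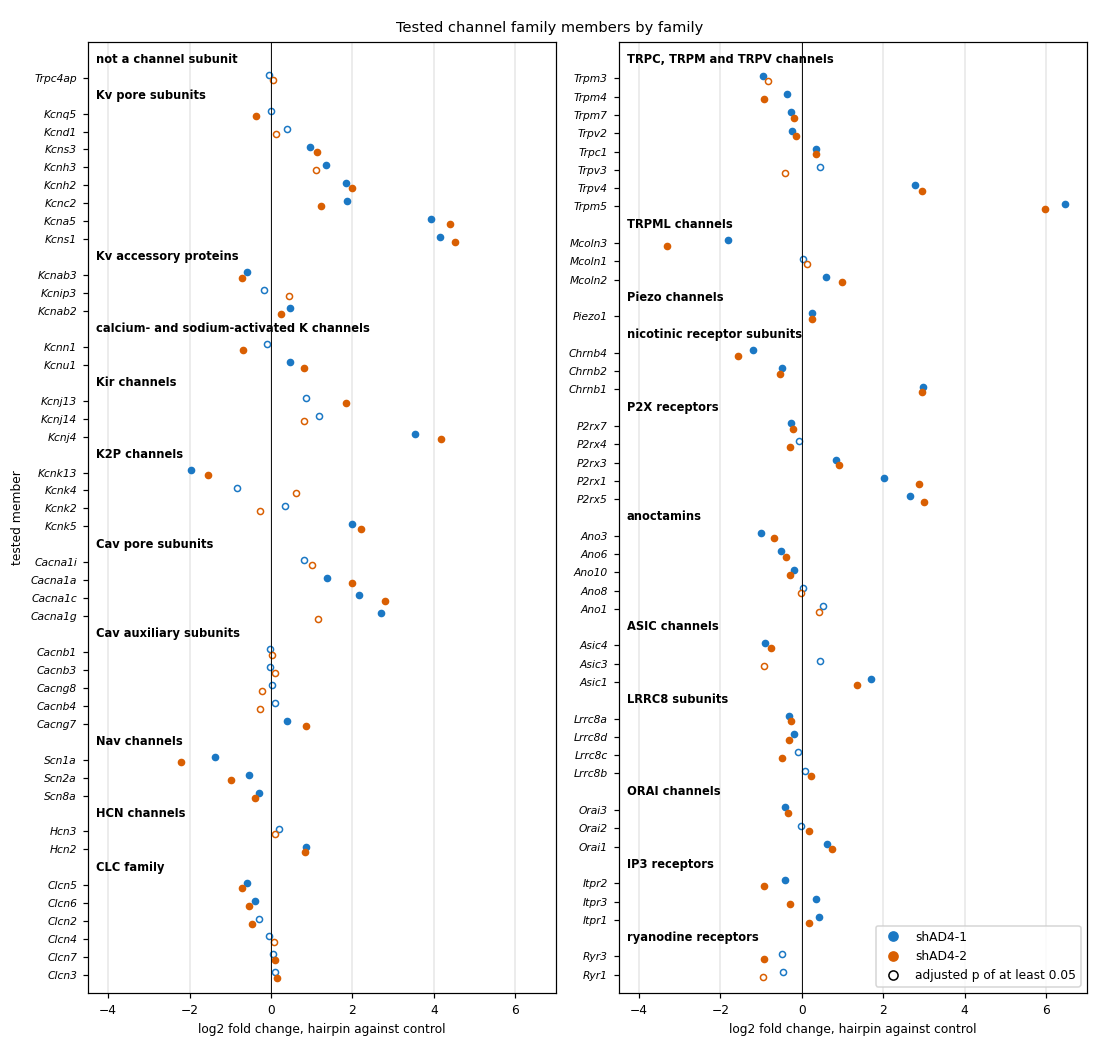
Log2 fold change against control (horizontal axis) of 81 tested members by family, blue for shAD4-1 and orange for shAD4-2, filled where the adjusted p was under 0.05. The points reach 6.46 for Trpm5 with shAD4-1 and -3.32 for Mcoln3 with shAD4-2, and most lie close to 0.

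The TRPML channels, encoded by Mcoln1, Mcoln2 and Mcoln3, release calcium and other cations from endosomes and lysosomes. Their upstream sequences are shown because Mcoln3 fell and Mcoln2 rose while Mcoln1 passed no test, and because Mcoln3 and Mcoln2 are next to each other in the RefSeq gene order with no gene between them. Each line gives the 250 bases before the annotated start in RefSeq on GRCm38.p6, 5′ to 3′ on the gene's strand. Capitals mark matches to CACGTG, the core of the E-box bound by the MITF and TFEB family, and to CATTCC or its reverse complement GGAATG, the core bound by TEAD factors, the partners of YAP1.
Mcoln1 (chr8:3500269-3500518, + strand): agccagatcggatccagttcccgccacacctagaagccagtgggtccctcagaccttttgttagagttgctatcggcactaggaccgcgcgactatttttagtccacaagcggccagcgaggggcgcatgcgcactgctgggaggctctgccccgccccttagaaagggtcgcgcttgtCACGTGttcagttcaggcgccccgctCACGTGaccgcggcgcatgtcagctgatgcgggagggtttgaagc
Mcoln2 (chr3:146149924-146150173, + strand): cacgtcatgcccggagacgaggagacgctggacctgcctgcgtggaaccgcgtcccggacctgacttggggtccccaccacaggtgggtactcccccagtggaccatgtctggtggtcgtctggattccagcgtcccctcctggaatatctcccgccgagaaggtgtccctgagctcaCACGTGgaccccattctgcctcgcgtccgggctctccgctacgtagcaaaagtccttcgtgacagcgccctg
Mcoln3 (chr3:146121541-146121790, + strand): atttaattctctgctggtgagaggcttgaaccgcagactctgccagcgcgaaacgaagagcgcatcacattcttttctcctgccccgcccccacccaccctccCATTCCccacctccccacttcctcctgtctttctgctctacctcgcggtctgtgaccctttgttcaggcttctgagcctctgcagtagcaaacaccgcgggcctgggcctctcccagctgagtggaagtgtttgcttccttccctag
The Mcoln1 window held 2 CACGTG matches, the Mcoln2 window 1 and the Mcoln3 window 0, and the Mcoln3 window held 1 CATTCC. Both strands were searched, and no printed window held more than 1 of the motifs, so no matches overlapped. CACGTG was in 6.02% of the 32851 windows of this length in the table and in 11 of the 97 windows (11.3%) of the 66 tested members that have one. CATTCC or GGAATG was in 12.6% of all windows and in 15 of the 97. TGACGTCA, the full cyclic AMP response element, was in 1.55% of all windows and in 2 of the 97, those of Clcn4 and Lrrc8a. A match is a description of letters, not a site, and no binding was measured here.

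Mcoln3 (gene ID 171166) had the largest fall of any tested member with shAD4-2 and the second largest with shAD4-1, after Kcnk13. Its level was 112, 93.4 and 89.8 CPM in the control libraries, 30.9, 24.1 and 29 CPM with shAD4-1, and 10.3, 9.96 and 9.28 CPM with shAD4-2. The 3 groups did not overlap, with control highest and shAD4-2 lowest. The fall was 3.51-fold with shAD4-1 (log2 fold change -1.81, SE 0.09, adjusted p = 2.49e-12) and 9.98-fold with shAD4-2 (-3.32, SE 0.10, adjusted p = 2.06e-15). The hairpins themselves differed 2.84-fold (-1.51, SE 0.10, adjusted p = 1.92e-08), shAD4-2 being lower. The Mcoln3 span overlaps Wdr63 in RefSeq, but that gene had means of 0.86, 0.388 and 0.751 CPM only.

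Mcoln2 (gene ID 68279), next to it, went the other way. It had 11.5, 11.7 and 9.97 CPM in control, 15.8, 17 and 17.1 with shAD4-1 and 22.3, 21.4 and 22.2 with shAD4-2, again 3 groups without overlap but in the opposite order. Its rise was 1.5-fold with shAD4-1 (adjusted p = 4.62e-06) and 1.99-fold with shAD4-2 (adjusted p = 3.45e-09), and shAD4-2 was 1.32-fold above shAD4-1 (adjusted p = 0.000859). Mcoln1 (gene ID 94178), the most widely expressed TRPML gene, passed the test in neither comparison, with means of 20.3 ± 2.26, 20.9 ± 0.534 and 22.1 ± 0.771 CPM (SD, n = 3). Its groups overlapped, and its log2 fold changes were 0.04 (SE 0.08) and 0.12 (SE 0.08). Per length, Mcoln3 had the highest FPKM of the 3 in control, came after Mcoln1 with shAD4-1 and was the lowest with shAD4-2. It held 70.1% ± 1.49 of the summed TRPML FPKM in control, 37.2% ± 2.96 with shAD4-1 and 15.7% ± 0.433 with shAD4-2 (SD, n = 3). Mcoln1 held 24.1%, 46.4% and 58.4%, and Mcoln2 5.85%, 16.4% and 25.9%. The summed TRPML level was 43.3 ± 5.09 FPKM in control, 22.2 ± 1.09 with shAD4-1 and 18.6 ± 0.487 with shAD4-2. These shares are given with no test.

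**Figure D3:**
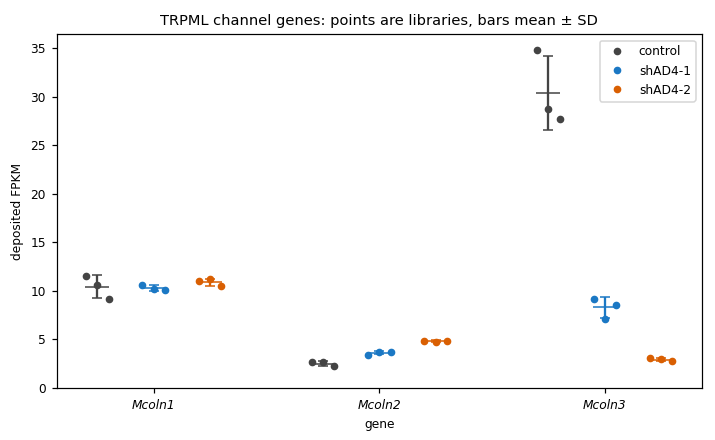
Deposited FPKM (vertical axis) of the 3 TRPML genes, with a point per library and a bar at mean ± SD for each group of 3. Mcoln3 falls from a mean of 30.4 FPKM in control to 8.3 with shAD4-1 and 2.92 with shAD4-2, Mcoln2 rises from 2.52 to 3.64 and 4.82, and Mcoln1 stays between 10.3 and 10.9.

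The IP3 receptors, which let calcium out of the endoplasmic reticulum when IP3 binds, did not move as one. Itpr1 (gene ID 16438), the main one, had 161, 156 and 148 CPM in control, 207, 208 and 209 with shAD4-1 and 174, 177 and 177 with shAD4-2. No groups overlapped, and shAD4-1 was highest. It rose 1.34-fold with shAD4-1 (adjusted p = 1.45e-08) and 1.13-fold with shAD4-2 (adjusted p = 0.000368). Itpr2 (gene ID 16439) had 101, 115 and 119 CPM in control, 82.1, 83.9 and 85.7 with shAD4-1 and 57.7, 58.3 and 60.6 with shAD4-2. Here control was highest and shAD4-2 lowest, a fall of 1.33-fold (adjusted p = 2.02e-06) and 1.9-fold (adjusted p = 4.27e-11). Itpr3 (gene ID 16440), the least abundant, was the 1 member called in opposite directions. It had 8.62, 8.35 and 8.12 CPM in control, 11.3, 10.5 and 10.3 with shAD4-1 and 6.81, 7.02 and 6.57 with shAD4-2. Its log2 fold change was 0.36 (SE 0.10, adjusted p = 0.00315) with shAD4-1 and -0.30 (SE 0.10, adjusted p = 0.0134) with shAD4-2, and the direct difference between the hairpins was -0.65 (adjusted p = 9.5e-05). The fall with shAD4-2 lost its call without the third shAD4-2 library (adjusted p = 0.0507). All 3 IP3 receptors were lower with shAD4-2 than with shAD4-1, where 14% of all tested genes were lower. Itpr1 held 60% of the summed IP3 receptor FPKM in control, 71.6% with shAD4-1 and 75.4% with shAD4-2, and Itpr2 held 36.3%, 24.2% and 21.2%.

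The ryanodine receptors, the other calcium release channels of that store, were scarce. Ryr3 had means of 0.978, 0.696 and 0.513 CPM, and its fall with shAD4-2 (log2 fold change -0.92, SE 0.38, adjusted p = 0.038) lost its call without the second or the third control or the second or the third shAD4-2 library (adjusted p = 0.0659 to 0.129). Ryr1 was tested without a call, with log2 fold changes of -0.45 (SE 0.66) and -0.96 (SE 0.72).

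ORAI proteins form the plasma membrane pore that STIM proteins open when the store is drained. Orai1 (gene ID 109305), the classical store-operated pore, rose from 9.42, 8.32 and 9.6 CPM to 13.6, 14.4 and 14 with shAD4-1 and 14, 15.6 and 16 with shAD4-2. Control lay below both hairpins without overlap, by 1.53-fold (adjusted p = 8.56e-06) and 1.67-fold (adjusted p = 8.61e-07). Orai3 (gene ID 269999), the most abundant per length, fell from 46.2, 47.1 and 45.1 CPM to 34.3, 36 and 33.7 with shAD4-1 and 33.7, 37.3 and 38.2 with shAD4-2. That was 1.33-fold (adjusted p = 5.47e-06) and 1.27-fold (adjusted p = 3.97e-05) below control, again without overlap. Orai2 rose 1.13-fold with shAD4-2 (adjusted p = 0.00267), with a log2 fold change of -0.02 (SE 0.05, adjusted p = 0.766) for shAD4-1, and the hairpins differed 1.14-fold (adjusted p = 0.00489). As shares of summed ORAI FPKM, Orai1 had 10.6% in control, 18.3% with shAD4-1 and 18.4% with shAD4-2, and Orai3 had 67.2%, 57% and 55.3%.

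Of 17 tested partners of store-operated entry, 5 were higher and 9 lower with shAD4-1, and 4 higher and 7 lower with shAD4-2, with median log2 fold changes of -0.19 and -0.04. For this and every other list of partner genes, the shares of all tested genes are 32.7% higher and 32.3% lower with shAD4-1, and 34.2% higher and 34.8% lower with shAD4-2. Stim2, a calcium sensor of the endoplasmic reticulum, fell from 54 ± 0.35 CPM to 33.6 ± 2.08 and 30 ± 2.15 (SD, n = 3), by 1.61-fold (adjusted p = 1.56e-08) and 1.8-fold (adjusted p = 7.7e-10). Jph4, a junctophilin that ties the reticulum to the plasma membrane, rose from 2 ± 0.205 CPM to 6.52 ± 0.363 and 7.5 ± 0.855. Esyt2, a membrane tether, fell 1.41-fold and 1.34-fold, and the scaffold Homer3 rose 1.42-fold and 1.78-fold. Of 20 tested calcium pumps, exchangers and mitochondrial uptake genes, 11 were higher and 5 lower with shAD4-1, and 11 higher and 7 lower with shAD4-2, with medians of 0.20 and 0.27. Atp2a2, the SERCA pump that refills the store, rose from 432 ± 4.03 CPM to 665 ± 9.03 with shAD4-1 and 576 ± 12.4 with shAD4-2. Atp2b1, a plasma membrane calcium pump, rose 1.62-fold and 1.53-fold and Letm1, of mitochondria, 1.42-fold and 1.47-fold. Of 26 tested genes of calcineurin, NFAT and calmodulin signalling, 14 were higher and 5 lower with shAD4-1, and 15 higher and 6 lower with shAD4-2, with a median of 0.15 in both. Camk2a, a calmodulin-dependent kinase, rose from 0.426 ± 0.24 CPM to 4.94 ± 0.642 and 6.44 ± 0.177. Like P2rx1, it passed the filter only with the help of hairpin libraries, so a difference was bound to appear. Nfatc1 and Nfat5, both NFAT family transcription factors, rose 2.82-fold and 1.7-fold with shAD4-1, and 2.51-fold and 1.68-fold with shAD4-2. Rcan3, a calcineurin regulator, fell 1.49-fold and 1.71-fold.

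P2X receptors are cation channels opened by extracellular ATP. P2rx5 (gene ID 94045) had 1.38, 1.39 and 1.58 CPM in control, 8.36, 9.87 and 9.3 with shAD4-1 and 11.5, 11.7 and 11.7 with shAD4-2. Control was far below both hairpins, 6.3-fold (adjusted p = 4.21e-12) and 7.98-fold (adjusted p = 5.48e-13). P2rx1 (gene ID 18436) had 0.308, 0.311 and 0.134 CPM in control, 0.828, 1.16 and 1.07 with shAD4-1 and 2.2, 1.81 and 1.58 with shAD4-2. It rose 4.07-fold (adjusted p = 0.000123) and 7.43-fold (adjusted p = 1.03e-06), but passed the filter only with the help of hairpin libraries. P2rx1 and P2rx5 stand near each other in the RefSeq order, with 4 genes between them. P2rx3 (gene ID 228139), best known from sensory neurons, rose from 29.8, 28.6 and 29.3 CPM to 51.5, 52.5 and 53.8 with shAD4-1 and 55.4, 55.3 and 54.1 with shAD4-2. The rise was 1.8-fold (adjusted p = 4.63e-11) and 1.88-fold (adjusted p = 1.5e-11).

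The other 2 tested P2X genes were lower with shAD4-2, and P2rx7 also with shAD4-1. P2rx4 (gene ID 18438), the most abundant, had 73.2, 84.9 and 79.7 CPM in control, 78, 76.2 and 71.2 with shAD4-1 and 66.3, 67.7 and 62.3 with shAD4-2. It overlapped control with shAD4-1 (log2 fold change -0.08, SE 0.06, adjusted p = 0.225) and fell 1.21-fold with shAD4-2 (adjusted p = 0.000256). Its span overlaps Camkk2, which had means of 55.9, 61.4 and 55.1 CPM. P2rx7, its neighbour in the gene order and a receptor for high ATP levels, fell 1.2-fold (adjusted p = 0.000819) and 1.16-fold (adjusted p = 0.00352). The summed P2X level was 40.1 ± 1.74, 42.1 ± 0.917 and 40.3 ± 1.3 FPKM (SD, n = 3), while P2rx4 held 74.3%, 64.4% and 58.7% of it, P2rx3 10.5%, 17.3% and 18.9%, and P2rx5 1.2%, 6.94% and 9.22%.

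**Figure D4:**
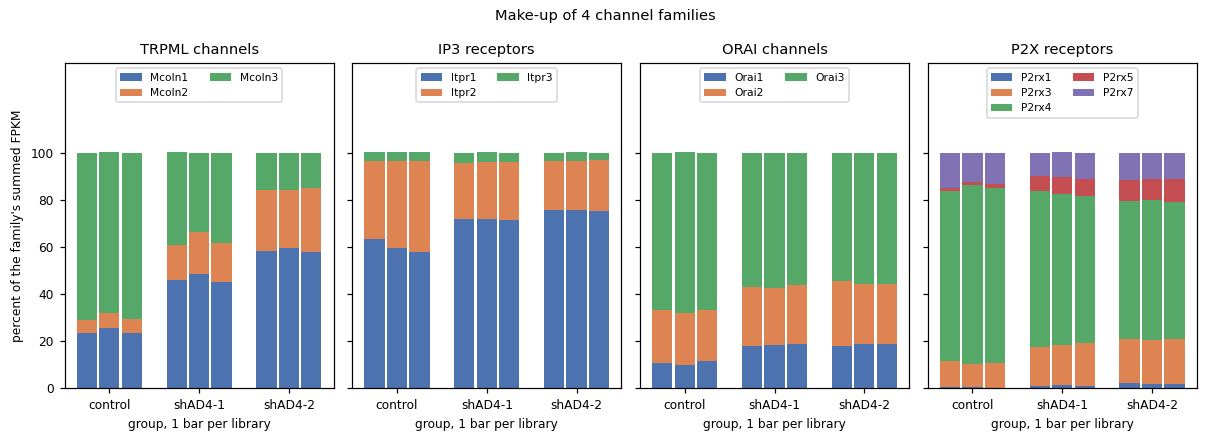
Percent of each family's summed FPKM (vertical axis) held by each gene, with 1 bar per library and 3 per group. In the TRPML bars the shares of Mcoln1 and Mcoln2 grow as that of Mcoln3 shrinks. The summed TRPML level behind them was 43.3 FPKM in control, 22.2 with shAD4-1 and 18.6 with shAD4-2. Orai1 goes from 10.6% to 18.4%, and P2rx3 and P2rx5 widen as P2rx4 narrows.

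Among the TRPC, TRPM and TRPV channels, 3 of 8 tested were higher and 4 lower with shAD4-1, and 3 higher and 3 lower with shAD4-2, near the shares of all tested genes (32.7% and 32.3%, and 34.2% and 34.8%). Trpm5 (gene ID 56843), a calcium-activated cation channel known from taste cells, and Kcns1, described below, had 2 of the largest rises of all, and their upstream windows are shown with the same marking.
Trpm5 (chr7:143094643-143094892, - strand): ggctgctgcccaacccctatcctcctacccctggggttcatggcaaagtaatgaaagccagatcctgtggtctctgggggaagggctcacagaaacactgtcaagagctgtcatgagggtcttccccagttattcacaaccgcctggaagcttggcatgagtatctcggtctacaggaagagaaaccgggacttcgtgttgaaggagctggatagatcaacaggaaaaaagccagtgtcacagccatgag
Kcns1 (chr2:164171114-164171363, - strand): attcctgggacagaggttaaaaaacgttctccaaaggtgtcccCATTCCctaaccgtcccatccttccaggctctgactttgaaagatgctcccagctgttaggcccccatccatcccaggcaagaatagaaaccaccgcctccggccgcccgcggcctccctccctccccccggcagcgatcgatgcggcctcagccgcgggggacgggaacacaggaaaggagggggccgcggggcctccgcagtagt
The Trpm5 window held none of the letters searched, which says only that they are not in this window. The Kcns1 window held 1 CATTCC. Trpm5 had 0.0616, 0.0566 and 0 CPM in control, 3.72, 3.77 and 3.5 with shAD4-1 and 2.11, 3.01 and 2.74 with shAD4-2. It went from a handful of reads to a low level, so the fitted ratios of 87.9 (log2 fold change 6.46, SE 0.41, adjusted p = 1.27e-10) and 62.7 (5.97, SE 0.43, adjusted p = 5.72e-10) rest on very few control reads. The gene next to Trpm5 in the RefSeq order is the potassium channel Kcnq1, which did not pass the filter. Kcnq1 had 0 reads in every control library, 10, 9 and 5 with shAD4-1 and 7, 1 and 6 with shAD4-2. Set over a floor of 3 reads for the control group, that gives ratios of 7.8 with shAD4-1 and 5.01 with shAD4-2. The error of the hairpin counts is not covered, so these ratios are no lower limits.

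Trpv4 (gene ID 63873), a cation channel opened by swelling and warmth, rose from 0.308, 0.311 and 0.456 CPM to 2.23, 2.64 and 2.61 with shAD4-1 and 2.95, 3.07 and 2.42 with shAD4-2. The hairpins overlapped each other and lay 6.86-fold (adjusted p = 4.5e-08) and 7.74-fold (adjusted p = 1.57e-08) above control. Trpc1 rose 1.28-fold with each hairpin (adjusted p = 0.000939 and 0.000981). Trpm7 (gene ID 58800), a magnesium and zinc permeable channel with its own kinase domain, fell from 189, 170 and 164 CPM to 139, 145 and 151 and to 150, 147 and 160. The fall was small, 1.2-fold (adjusted p = 0.000192) and 1.14-fold (adjusted p = 0.00285). Trpv2 fell 1.17-fold (adjusted p = 0.00144) and 1.11-fold (adjusted p = 0.0218), and the second call was lost without the first control, the first shAD4-2 or the third shAD4-2 library (adjusted p = 0.0539 to 0.133). Trpm4 (gene ID 68667), the close relative of Trpm5, fell from 10.1, 14.2 and 12.8 CPM to 6.59, 8.12 and 4.9 with shAD4-2, by 1.89-fold (adjusted p = 2.24e-05). Its fall with shAD4-1, 1.28-fold (adjusted p = 0.0329), was lost without the second or the third control or any shAD4-1 library (adjusted p = 0.0553 to 0.187). Trpm3, at a mean of 0.56 CPM in control, fell 1.94-fold with shAD4-1 (adjusted p = 0.0431), a call lost without any 1 of the 9 libraries (adjusted p = 0.0539 to 0.158). Piezo1 (gene ID 234839), opened by membrane stretch, rose from 166, 159 and 151 CPM to 192, 189 and 182 and to 185, 192 and 183, which was 1.18-fold with each hairpin (adjusted p = 4.53e-05 and 5.98e-05). Its span overlaps Ctu2, which had means of 14.9, 20.3 and 17.1 CPM.

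Voltage-gated potassium (Kv) pore genes were mostly low. Of 9 tested, 6 were higher and 0 lower with shAD4-1, where 32.7% of all tested genes were higher and 32.3% lower, and 5 were higher and 1 lower with shAD4-2, where these shares were 34.2% and 34.8%. The higher ones include Kcna5 and Kcns1, which passed the filter only because of the hairpin libraries. With shAD4-1 they also include Kcnh3, whose call rested on single libraries. The counts therefore describe these genes and not the family. Kcns1 (gene ID 16538), a silent subunit that modifies Kv2 channels, had 0.154, 0.198 and 0.322 CPM in control, 4.41, 4.34 and 3.69 with shAD4-1 and 6.03, 4.01 and 5.83 with shAD4-2. It was all but silent in control and rose 17.9-fold (log2 fold change 4.16, SE 0.28, adjusted p = 3.53e-10) and 22.9-fold (4.52, SE 0.28, adjusted p = 7.26e-11). These ratios rest on few control reads, and a difference was bound to appear in a gene that passed the filter in this way. Kcna5 (gene ID 16493), a delayed rectifier, had 0.123, 0 and 0.0536 CPM in control, 1.16, 0.567 and 1.02 with shAD4-1 and 1.17, 1.29 and 1.39 with shAD4-2. The fitted rises of 15.1-fold (adjusted p = 1.02e-05) and 21.1-fold (adjusted p = 1.49e-06) again rest on few control reads.

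Kcnh2 (gene ID 16511), the rapid delayed rectifier also called hERG, was the Kv pore gene with the highest FPKM and had the reads for a firm ratio. It rose from 6.62, 7.87 and 6.54 CPM to 26.5, 25.3 and 24.2 with shAD4-1 and 27.8, 29.4 and 26.7 with shAD4-2. The rise was 3.62-fold (log2 fold change 1.85, SE 0.08, adjusted p = 1.27e-12) and 3.99-fold (1.99, SE 0.08, adjusted p = 3.66e-13). Kcns3, another silent subunit, rose 1.95-fold (adjusted p = 0.00034) and 2.21-fold (adjusted p = 5.35e-05), from a mean of 1.32 ± 0.0741 CPM (SD, n = 3). Kcnc2 (gene ID 268345), a fast Kv3 channel of neurons, rose 3.66-fold with shAD4-1 (adjusted p = 1.9e-06) and 2.34-fold with shAD4-2 (adjusted p = 0.000281). Kcnq5, of the M-current family, was the Kv pore gene that fell with shAD4-2, by 1.29-fold (adjusted p = 0.0183), and had a log2 fold change of 0.01 (SE 0.12) with shAD4-1. That call was lost without the second control, the first shAD4-2 or the second shAD4-2 library (adjusted p = 0.0531 to 0.0974). Kcnd1 passed the test with neither hairpin, while Kcnh3, whose span overlaps Mcrs1, was called with shAD4-1 (log2 fold change 1.34, SE 0.50, adjusted p = 0.0246) although its libraries overlapped those of control. The Kcnh3 call was lost without the first or the second control or the second or the third shAD4-1 library (adjusted p = 0.0728 to 0.0893).

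Of the Kv accessory genes, Kcnab2 (gene ID 16498), the Kv beta2 subunit, had a level well above any Kv pore gene in FPKM, 7.88 in control, 10.5 with shAD4-1 and 9.01 with shAD4-2. It had 72.6, 75.6 and 76.4 CPM in control, 106, 107 and 97.6 with shAD4-1 and 86.5, 92.6 and 88.2 with shAD4-2, a rise of 1.38-fold (adjusted p = 6.96e-08) and 1.19-fold (adjusted p = 0.000131). Its span overlaps Nphp4, which had means of 9.85, 7.83 and 8.2 CPM. Kcnab3 fell 1.5-fold (adjusted p = 0.0313) and 1.65-fold (adjusted p = 0.0112). The first call on Kcnab3 was lost without the third control or the second shAD4-1 library (adjusted p = 0.127 and 0.14), and the second without the third control or the third shAD4-2 library (adjusted p = 0.0567 and 0.0511). Among channels gated by internal ions, Kcnu1, a sperm channel of the Slo family, rose 1.38-fold (adjusted p = 0.0371) and 1.74-fold (adjusted p = 0.000969). The first of these was lost without the first or the second control or the second or the third shAD4-1 library (adjusted p = 0.0507 to 0.175). Kcnn1, a small-conductance calcium-activated channel, fell 1.61-fold with shAD4-2 (adjusted p = 0.0137), with a log2 fold change of -0.10 (SE 0.22) for shAD4-1, and that call was lost without the third shAD4-2 library (adjusted p = 0.0793).

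Inward rectifier (Kir) and 2-pore-domain (K2P) channels set the resting potential. Kcnj4 (gene ID 16520), a strong inward rectifier, had 0.0923, 0.0566 and 0.134 CPM in control, 1.54, 0.936 and 0.936 with shAD4-1 and 2.31, 1.75 and 1.29 with shAD4-2, giving fitted rises of 11.6-fold (adjusted p = 2.81e-06) and 18.2-fold (adjusted p = 1.67e-07). Kcnj13 (gene ID 100040591), a weak rectifier of pigment and transport epithelia, had means of 0.331 ± 0.0896, 0.602 ± 0.0332 and 1.21 ± 0.167 CPM (SD, n = 3). It rose 3.6-fold with shAD4-2 (adjusted p = 0.000137) and had an adjusted p of 0.0537 with shAD4-1. The span of Kcnj13 overlaps Gigyf2, which went from a mean of 99.2 to 130 and 133 CPM, and the part of those reads in the Kcnj13 count was not tested. Kcnk5 (gene ID 16529), an alkaline-activated K2P channel, rose 3.97-fold (adjusted p = 0.000331) and 4.6-fold (adjusted p = 0.000102), from a mean of 0.371 ± 0.285 CPM. It passed the filter only with the help of hairpin libraries, so a difference was bound to appear. Kcnk13 (gene ID 217826), another K2P channel, went down, from 2.83, 3.68 and 3.03 CPM to 0.938, 0.737 and 0.771 and to 1.06, 1.03 and 1.16. Control lay above both hairpins by 3.89-fold (adjusted p = 7.95e-07) and 2.93-fold (adjusted p = 8.86e-06). Kcnk2 passed the test against control with neither hairpin, and Kcnj14 and Kcnk4 likewise.

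**Figure D5:**
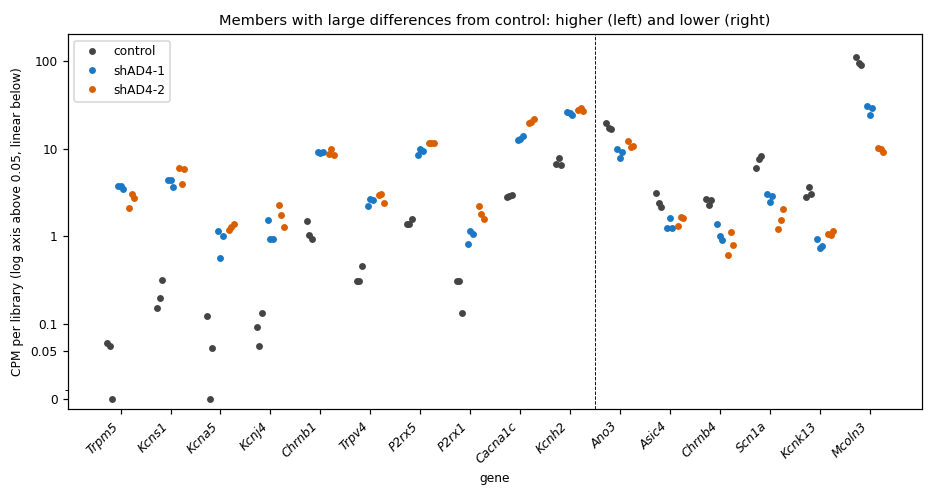
CPM per library (vertical axis, logarithmic above 0.05 and linear below) of 10 members that rose and 6 that fell with both hairpins, 3 points per group. On the left all hairpin libraries lie above all control libraries, from Trpm5 with a control mean of 0.0394 CPM to Kcnh2 with 7.01, and on the right they lie below, down to Mcoln3.

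Of the 4 tested voltage-gated calcium pore genes, 3 were higher with shAD4-1 and 2 with shAD4-2, where 32.7% and 34.2% of all tested genes were higher, and none of the 4 was lower with either. Cacna1c (gene ID 12288), the L-type channel Cav1.2, had 2.8, 2.89 and 2.98 CPM in control, 12.6, 12.8 and 13.8 with shAD4-1 and 19.4, 19.9 and 21.7 with shAD4-2. The 3 groups were far apart, with rises of 4.51-fold (log2 fold change 2.17, SE 0.10, adjusted p = 2e-12) and 7.02-fold (2.81, SE 0.10, adjusted p = 3.05e-14), and shAD4-2 was 1.56-fold above shAD4-1 (adjusted p = 2.31e-05). Its span overlaps Dcp1b, which went the other way, with means of 23.6, 20.1 and 16.6 CPM. Cacna1a (gene ID 12286), the P/Q-type pore of synapses, rose 2.58-fold (adjusted p = 0.00126) and 3.98-fold (adjusted p = 2.07e-05), from 0.554, 0.425 and 0.456 CPM. Cacna1g, a T-type pore, rose 6.55-fold with shAD4-1 (adjusted p = 0.000358) to a mean of 0.638 ± 0.138 CPM, and had an adjusted p of 0.132 with shAD4-2. It passed the filter only through the shAD4-1 libraries, so a difference was bound to appear, and the count of 3 includes it. Of the 5 tested auxiliary genes of these channels, only Cacng7 was called with either hairpin. Cacng7 (gene ID 81904), whose protein also serves AMPA receptors, rose from 19, 19.6 and 18.9 CPM to 26.4, 25.2 and 24.3 and to 32.7, 33.5 and 38.2. Its 3 groups did not overlap, with rises of 1.32-fold (adjusted p = 6.62e-05) and 1.82-fold (adjusted p = 3.24e-09). Cacng8, next to it in the gene order, had log2 fold changes of 0.03 (SE 0.20) and -0.23 (SE 0.20).

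Voltage-gated sodium channels start the action potential of nerve and muscle. The 3 tested pore genes fell with both hairpins, where 32.3% of all tested genes were lower with shAD4-1 and 34.8% with shAD4-2. With so few genes, the count describes these genes and not the family. Scn8a (gene ID 20273), the Nav1.6 pore and the main one here, fell from 78.4, 75.3 and 75.3 CPM to 60.4, 62.6 and 62.3 and to 58.9, 57.4 and 57.5, by 1.24-fold (adjusted p = 6.84e-06) and 1.32-fold (adjusted p = 2.36e-07). Scn1a (gene ID 20265), the Nav1.1 pore, fell from 6.09, 7.64 and 8.34 CPM to 3.06, 2.5 and 2.92 and to 1.2, 1.55 and 2.06. Its groups were apart, by 2.61-fold (adjusted p = 1.91e-06) and 4.62-fold (adjusted p = 1.02e-08). Scn2a, the Nav1.2 pore, fell 1.47-fold (adjusted p = 0.0113, and 0.0513 without the second control library) and 1.95-fold (adjusted p = 0.000156), and is separated from Scn1a by 3 genes in the RefSeq order. Of the HCN channels, which open on hyperpolarisation and bind cyclic AMP, Hcn2 (gene ID 15166) rose from 8, 9.09 and 11.2 CPM to 17.5, 16.6 and 16.9 and to 15.3, 17.3 and 18. That was 1.8-fold (adjusted p = 1.15e-06) and 1.78-fold (adjusted p = 1.33e-06), while Hcn3 passed the test with neither hairpin.

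The CLC family holds plasma membrane chloride channels and the chloride-proton exchangers of endosomes and lysosomes. Clcn5 (gene ID 12728), an endosomal exchanger, fell from 99.6, 97.7 and 93.4 CPM to 62.7, 64.9 and 66.1 and to 61.3, 58.2 and 57.8. Control was clearly above both, by 1.5-fold (adjusted p = 2.05e-09) and 1.64-fold (adjusted p = 1.29e-10). Clcn6, of late endosomes, fell 1.3-fold (adjusted p = 3.26e-05) and 1.46-fold (adjusted p = 5.16e-07). Clcn7 had means of 83.6 ± 3.19, 86.7 ± 3.92 and 90.4 ± 2.51 CPM (SD, n = 3), with an adjusted p of 0.329 for shAD4-1 and a 1.08-fold rise with shAD4-2 (adjusted p = 0.039). That call was lost without the first control, the first shAD4-2 or the second shAD4-2 library (adjusted p = 0.0625 to 0.14), and with upper-quartile scaling (adjusted p = 0.143). Clcn3 rose 1.11-fold with shAD4-2 (adjusted p = 0.0207), with libraries that overlapped control, and the call was lost without the second or the third control or the first or the third shAD4-2 library (adjusted p = 0.0558 to 0.0999). Clcn2, a plasma membrane channel, fell 1.39-fold with shAD4-2 (adjusted p = 0.0177), also with overlap, and lost the call without the second or the third control or the first or the second shAD4-2 library (adjusted p = 0.0607 to 0.112). Clcn4 was called with neither hairpin.

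Anoctamins are calcium-activated chloride channels or lipid scramblases. Of the 5 tested, 0 were higher, 3 lower and 2 not called with each hairpin. Of all tested genes, 32.7% were higher and 32.3% lower with shAD4-1, and 34.2% higher and 34.8% lower with shAD4-2. With 5 genes, the counts describe these genes and not the family. Ano6 (gene ID 105722), the scramblase that exposes phosphatidylserine, fell from 113, 119 and 119 CPM to 83, 83 and 81.1 and to 90, 87.9 and 88.3. The fall was 1.42-fold (adjusted p = 2.97e-09) and 1.32-fold (adjusted p = 6.72e-08). Its span overlaps the non-coding gene A130051J06Rik, with means of 3.78, 2.51 and 1.89 CPM. Ano10 (gene ID 102566) fell less, from 93.6, 111 and 108 CPM to 87.6, 95.1 and 89 and to 88.7, 87.1 and 78.8, by 1.15-fold (adjusted p = 0.00675) and 1.23-fold (adjusted p = 0.000283). The first of these calls was lost without the second control library (adjusted p = 0.0619), and the first control library lay within the range of the hairpin libraries. Ano3 (gene ID 228432) fell from 19.8, 17.2 and 16.8 CPM to 9.79, 7.77 and 9.28 and to 12.1, 10.5 and 10.7. That was 2-fold (adjusted p = 9.84e-08) and 1.61-fold (adjusted p = 7.85e-06).

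LRRC8 proteins build the volume-regulated anion channel, in which LRRC8A is the obligatory subunit. Lrrc8a (gene ID 241296) fell from 41.6, 42.7 and 43.5 CPM to 35.6, 34.5 and 32.3 and to 35.7, 35.1 and 35.2, by 1.25-fold (adjusted p = 5.07e-05) and 1.21-fold (adjusted p = 0.000258). Lrrc8d, the subunit with the highest FPKM of the family, fell 1.15-fold (adjusted p = 0.000261) and 1.24-fold (adjusted p = 2.38e-06). Lrrc8c and Lrrc8b, which lie near it in the gene order, were called with shAD4-2 and in opposite directions. Lrrc8c went from 42.8 ± 1.51 to 30.6 ± 0.195 CPM (1.4-fold, adjusted p = 3.58e-07) and Lrrc8b from 38.5 ± 4.8 to 45 ± 1.43 (1.17-fold, adjusted p = 0.0115). The Lrrc8b call was lost without the third control library (adjusted p = 0.0649). With shAD4-1 the log2 fold changes were -0.09 (SE 0.05) and 0.07 (SE 0.07). The summed LRRC8 level was 33 ± 0.74 FPKM in control, 28.2 ± 0.0467 with shAD4-1 and 27.2 ± 0.0239 with shAD4-2.

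Nicotinic receptor subunits exchanged their order in FPKM. Chrnb1 (gene ID 11443), the muscle-type beta1 subunit, had 1.51, 1.05 and 0.938 CPM in control, 9.16, 8.93 and 9.11 with shAD4-1 and 8.62, 9.83 and 8.38 with shAD4-2. It rose 7.83-fold (log2 fold change 2.97, SE 0.16, adjusted p = 1.31e-11) and 7.72-fold (2.95, SE 0.16, adjusted p = 1.31e-11), and the hairpins overlapped. Chrnb2 (gene ID 11444), a neuronal subunit, fell from 24.1, 30 and 31.1 CPM to 20.8, 19.6 and 20.1 and to 20.4, 18.7 and 19.5, by 1.41-fold (adjusted p = 4.24e-05) and 1.46-fold (adjusted p = 1.52e-05). Its span overlaps Adar, whose mean went from 233 to 139 CPM with each hairpin, and the part of Adar reads in the Chrnb2 count was not tested. Chrnb4, the other neuronal beta subunit tested, fell 2.27-fold (adjusted p = 0.00074) and 2.97-fold (adjusted p = 6.54e-05), from 2.68, 2.26 and 2.6 CPM. Chrnb1 held 9.02% of the summed nicotinic FPKM in control, 52.2% with shAD4-1 and 53% with shAD4-2. The muscle delta subunit Chrnd was not tested, with 0 reads in control, 0, 7 and 6 with shAD4-1 and 3, 8 and 2 with shAD4-2.

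Of the acid-sensing (ASIC) channels, Asic1 (gene ID 11419) rose from 0.585, 0.991 and 1.07 CPM to 2.57, 3.03 and 3.03 and to 2.36, 2.52 and 1.93, by 3.22-fold (adjusted p = 7.53e-06) and 2.55-fold (adjusted p = 0.000104). Asic4 went down, from 3.14, 2.43 and 2.14 CPM to 1.24, 1.62 and 1.24 and to 1.31, 1.68 and 1.61. Its fall was 1.88-fold (adjusted p = 0.00234) and 1.68-fold (adjusted p = 0.00882), and the second lost its call without the first control library (adjusted p = 0.0574). Asic3, whose span overlaps Cdk5, was called with neither hairpin.

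Compared directly, the hairpins differed at 21 of the 86 tested members, 24.4% against 27.4% of all tested genes. With shAD4-2, 8 were higher and 13 lower than with shAD4-1, 9.3% and 15.1% of members, where all genes gave 13.4% and 14%. The median log2 difference was 0.02 for members and 0.00 for all genes. At least 2-fold lower with shAD4-2 were 2 members, 2.33% against 1.37% of all genes, namely Mcoln3, described above, and Cacna1g, by 2.94-fold (adjusted p = 0.026). No member was called and at least 2-fold higher, against 0.319% of all genes, Kcnj13 being just under that fold. Besides Mcoln3, Scn1a was 1.77-fold lower (adjusted p = 0.00653), Itpr3 1.57-fold, Itpr2 1.43-fold (adjusted p = 3.64e-06) and Lrrc8c 1.31-fold (adjusted p = 5.73e-05). Higher with shAD4-2 were Cacna1c and Mcoln2, given above, and Cacng7, by 1.37-fold (adjusted p = 8.35e-05). The count of higher members depended on single libraries. It was 5 without the first shAD4-1 library, 4 without the third, 4 without the first shAD4-2 library and 5 without the second. Several smaller calls between the hairpins rested on single libraries. Kcnj13 (just under 2-fold higher, adjusted p = 0.0286), P2rx1 (1.83-fold higher, adjusted p = 0.0359) and Kcnc2 (1.56-fold lower, adjusted p = 0.0371) each lost the call without any of the 3 shAD4-1 libraries or without the first or the second shAD4-2 library. Their adjusted p was then 0.0669 to 0.11, 0.0626 to 0.156 and 0.0582 to 0.167. Cacna1g and P2rx5 (1.27-fold higher, adjusted p = 0.0202) lost it without the first or the third shAD4-1 or the first or the second shAD4-2 library (adjusted p = 0.0765 to 0.11 and 0.0525 to 0.101). Kcnq5 (1.29-fold lower, adjusted p = 0.0401) lost it without the second or the third shAD4-1 or the first or the second shAD4-2 library (adjusted p = 0.107 to 0.14). Ano3 (1.24-fold higher, adjusted p = 0.0377) lost it without the second or the third shAD4-1 or the first or the third shAD4-2 library (adjusted p = 0.0505 to 0.185). Kcnk2 (1.54-fold lower, adjusted p = 0.0186) lost it without the first or the third shAD4-1 or the third shAD4-2 library (adjusted p = 0.059 to 0.0713). P2rx4 (1.15-fold lower, adjusted p = 0.0134) lost it without the first or the second shAD4-1 or the third shAD4-2 library (adjusted p = 0.054 to 0.0704). Trpm4 (1.48-fold lower, adjusted p = 0.00957) lost it without the third shAD4-2 library (adjusted p = 0.0559).

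Other genes of ion transport are given for comparison, to be read against the 65% and 69% of all tested genes called with shAD4-1 and shAD4-2. Of 42 tested channel, pore and gap junction genes outside these families, 17 were higher and 15 lower with shAD4-1, and 17 higher and 16 lower with shAD4-2, with medians of -0.05 and 0.05. Gja1, the gap junction protein connexin 43, rose from 9.92 ± 2.26 CPM to 27.1 ± 0.885 and 20.8 ± 2.16 (SD, n = 3), and the AMPA receptor subunit Gria4 fell from 13.2 ± 0.525 to 5.55 ± 0.587 and 3.04 ± 0.791. Clic1 rose 1.64-fold and 1.74-fold, and the acid-activated chloride channel Pacc1 fell 1.33-fold and 1.49-fold. Of 29 tested sodium, potassium and chloride pumps and cotransporters, 8 were higher and 10 lower with shAD4-1, and 7 higher and 12 lower with shAD4-2, with a median of -0.06 in both. Atp1b2, which encodes a beta subunit of the sodium pump, fell from 11.2 ± 2.38 CPM to 2.53 ± 0.329 and 2.3 ± 0.545. The potassium-chloride cotransporter gene Slc12a7 fell 1.27-fold with shAD4-1 and 1.57-fold with shAD4-2. Of 21 tested auxiliary and trafficking partners, 7 were higher and 5 lower with shAD4-1, and 7 higher and 8 lower with shAD4-2, with medians of 0.10 and 0.06. Mdfic, an auxiliary subunit of Piezo channels, rose 1.83-fold and 1.31-fold, while its relative Mdfi fell 1.25-fold and 1.44-fold. Pip5k1c rose 1.29-fold and 1.22-fold, and Plcg1, which makes IP3, fell 1.21-fold and 1.4-fold. Each change named here passed the adjusted p threshold of 0.05 in both comparisons with control.

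The 76 members that were not tested include most Kv pore genes and most sodium channel genes. Of these, 47 had at most 10 reads over the 9 libraries and 20 had a single read in all. Of all 162 members, 36 had 0 reads in every control library, and at this depth a count of 0 over a group allows up to 3 reads. A few of them had reads in every hairpin library and none in control. Besides Kcnq1, these included Chrna4 with 10 reads over the shAD4-1 libraries and 4 over the shAD4-2 libraries, and Kcnj15 with 8 and 9. Set over a floor of 3 control reads, such counts give ratios of 3.25 and 1.43 for Chrna4 and 2.6 and 3.22 for Kcnj15. The floor covers the counting error of the control only. The error of the few hairpin reads is not covered, so these ratios are no lower limits. These genes were also picked for their lack of control reads. For 51 of the 86 tested members the span overlaps another gene in RefSeq, and for 15 of them that gene reached 1 CPM in some group. The sources used here do not say whether counting used strand, and reads of such partners cannot be told apart.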

How the data were processed

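RNA of 9 B16 libraries, 3 per group, was sequenced after library preparation with the VAHTS Universal V6 kit, per the labels' protocols. The submitters' processing notes name fastp, HISAT2, HTSeq and the GRCm39 build without versions. The authors deposited a table of read counts per gene and a table of FPKM. Column names show control and knockdown groups 1 and 2, per the file headers, and these numbers were matched to those of the hairpins. The sources used here do not give the strand setting or the rule for reads of near-identical genes.

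Members were found by symbol. They and the companion lists were chosen with earlier results of these data known. Counts were tested with edgeR 4.0.16 in R 4.3.3 (quasi-likelihood test, TMM scaling, filterByExpr, group as the only term, all 9 libraries in 1 fit), with Benjamini-Hochberg adjustment over 13807 genes, which held 99.968% of reads, and a threshold of 0.05. Library totals were 31.3 to 36.9 M reads and the common biological coefficient of variation was 5.15%. "Higher" and "lower" mean past that threshold. An SE of a log2 fold change is its size divided by the root of the F statistic. CPM are scaled by TMM. FPKM were used as deposited to compare levels between genes.

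The genes to name were, per comparison and direction, the 8 largest changes without overlap of libraries, where the higher group had a mean of 1 CPM or more. Added were the 12 members highest in FPKM, the highest of each family, those called in opposite directions, and 4 genes per companion list. Other members named were chosen after their values were seen. Some genes are counted but not reported or drawn here by name. Same-numbered libraries had correlations of deviations from the group means of -0.124 to 0.00225 over 9 pairs, so the replicate numbers were not taken to pair samples. Alternatives were other scalings, filters and designs, DESeq2 1.42.0, limma 3.58.1 on log2(FPKM + 1) and log2(FPKM + 0.1), a test against a 1.2-fold change, a replicate block, and leaving out each library. The fitting code was tested on simulated data. Sequences and gene order come from RefSeq tables on GRCm38.p6, another build than the authors'. All 162 members were matched, by gene ID or else by symbol.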

Additional observations from a re-analysis of the deposited data

Results flagged for a closer look

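Itpr3, the IP3 receptor with the lowest level, was higher than control with shAD4-1 and lower than control with shAD4-2, and the direct comparison of the hairpins gave a log2 fold change of -0.65 (SE 0.10, adjusted p = 9.5e-05, edgeR). Its level was 10.3 to 11.3 CPM in the 3 shAD4-1 libraries and 6.57 to 7.02 CPM in the 3 shAD4-2 libraries. Among tested members it alone was called in opposite directions, and both calls use the same control libraries. The call with shAD4-2 was lost without the third shAD4-2 library (adjusted p = 0.0507). In the edgeR test against a 1.2-fold change both calls against control were lost (adjusted p = 0.137 with shAD4-1 and 0.29 with shAD4-2).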

How the results depend on the processing

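Counts of members called stayed within 1.5 times the reported ones in 115 of 126 recomputations. A test against a 1.2-fold change gave 12 lower with shAD4-1, 17 lower with shAD4-2, and 2 higher and 3 lower between the hairpins. Limma on log2(FPKM + 1), with at least 1 FPKM in 3 libraries, tested 46 members and gave 16 higher with each hairpin and 8 lower between the hairpins, and with fewer members tested fewer could be called. Leaving out each library in turn gave 29 to 33 higher and 19 to 24 lower with shAD4-1, 32 to 37 higher and 24 to 29 lower with shAD4-2, and 4 to 12 higher and 9 to 16 lower between the hairpins. With the replicate number as a block, although the numbers were not found to pair the libraries, the counts were 29 higher and 22 lower, 32 higher and 28 lower, and 7 higher and 13 lower. For the 330 results of single genes, 6455 of 6746 recomputed values kept direction and call, 211 lost the call, 80 gained it and none reversed a call. The depth limits the 76 members that were not tested and the ratios of Trpm5, Kcna5 and Kcnj4, whose control counts were near 0.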
